A study of Drosophila melanogaster with 2 samples.

Results

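The genes examined here encode the proteins of the mitochondrial ribosome. They were taken by symbol: every protein-coding gene of the dm6 annotation whose symbol begins with mRpL (47 genes) or mRpS (26 genes), which gives 73 of 13945 protein-coding genes on the chromosome arms with peaks. The measurements are ChIP-seq peaks of the protein encoded by CG3407, fused at its C terminus to green fluorescent protein (GFP), in whole Drosophila melanogaster embryos of mixed sex aged 0 to 14 h. There was 1 group of 2 biological replicates, both from 1 transgenic line, with chromatin sheared by sonication to 200 to 800 bp. The labels name both a transcription factor ChIP and an input control for each library; they were read as ChIP because the deposited lists give peaks of these 2 libraries over 1 further file named as the control. Peaks from the control or from untagged flies were not analysed here, the depth of the libraries is unknown, and with 1 group no difference between conditions could be tested.

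The mitochondrial ribosome translates the few proteins encoded by mitochondrial DNA, which are subunits of the respiratory chain and of ATP synthase. Its RNA comes from the mitochondrial genome, whereas its proteins are all made from nuclear genes, translated in the cytosol and imported. The large subunit (mRpL proteins) forms peptide bonds and the small subunit (mRpS proteins) holds the messenger RNA. The assembly needs many nuclear genes to be expressed together, and their promoters are scattered over the genome.

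Peaks were called present at a gene when the summit of a peak lay within 500 bp of any of its annotated transcription start sites. The irreproducible discovery rate (IDR) list holds 4089 peaks, ranked by the peak caller's score, which ran from 163 to 23642 in that list. By this rule 13 of the 73 mitochondrial ribosomal protein genes (17.8%, 95% Wilson interval 10.7 to 28.1) had an IDR summit, against 14.1% of all protein-coding genes. The share of genes was therefore close to the background. The 13 genes were 5 for the large subunit (mRpL11, mRpL20, mRpL23, mRpL24 and mRpL41) and 8 for the small subunit (mRpS2, mRpS6, mRpS7, mRpS10, mRpS18B, mRpS22, mRpS23 and mRpS26), at 13 separate peaks.

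At the highest ranks the share of members was above the background. Of the 73 genes, 7 (9.59%, interval 4.72 to 18.5) had a summit of rank 1 to 500 in the IDR list, against 2.23% of all protein-coding genes. At rank 1 to 50 there were 3 members (4.11%) and 0.136% of all genes. Among the 58 members with a divergent promoter, defined below, 7 (12.1%) had a summit of rank 1 to 500, against 3.47% of all divergent genes. These rank classes were chosen with earlier results known, and the differences are descriptions without a test.

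The highest of these peaks lay at mRpS10, whose product belongs to the small-subunit proteins shared with bacteria. The peak at chr3R:15229352-15229710 scored 1992 and held rank 44 in the IDR list. It scored 968 with rank 36 in replicate 1 and 1013 with rank 52 in replicate 2, each on the scale of its own list. Positions are given in bp from a gene's start on its own strand, negative upstream. The summit lay at −139 bp from mRpS10 and −118 bp from Art3, a protein arginine methyltransferase gene that starts 257 bp away on the other strand. The same peak therefore sits at both starts and cannot be credited to either gene alone.

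The sequences between the paired starts of mRpS10, mRpL24 and mRpS2 are shown because in these 3 pairs the whole gap is short and holds 1 high-scoring summit. All are from the RefSeq copy of dm6, 5′ to 3′ on the strand of the mitochondrial ribosomal protein gene, and exclude both start bases; capitals mark every match to the 10 motifs named further on, which are the TATA box and the E-box in these gaps, with none at mRpS10.
mRpS10, plus strand, chr3R:15229409-15229664, with the summit at base 118: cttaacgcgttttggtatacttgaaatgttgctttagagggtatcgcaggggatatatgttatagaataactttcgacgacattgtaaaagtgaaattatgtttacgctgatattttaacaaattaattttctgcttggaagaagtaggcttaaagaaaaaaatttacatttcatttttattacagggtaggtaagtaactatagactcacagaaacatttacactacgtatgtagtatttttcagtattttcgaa
mRpL24, minus strand, chr2L:4945362-4945578, with the summit at base 107: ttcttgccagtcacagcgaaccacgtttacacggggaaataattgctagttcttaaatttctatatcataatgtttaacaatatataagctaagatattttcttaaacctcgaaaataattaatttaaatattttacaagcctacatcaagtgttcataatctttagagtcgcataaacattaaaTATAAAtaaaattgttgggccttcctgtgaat
mRpS2, minus strand, chr2L:4850420-4850640, with the summit at base 80: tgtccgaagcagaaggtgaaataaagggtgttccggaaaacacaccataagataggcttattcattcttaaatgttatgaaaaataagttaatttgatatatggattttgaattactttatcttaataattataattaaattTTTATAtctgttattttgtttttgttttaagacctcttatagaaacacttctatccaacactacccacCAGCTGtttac

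The 3 gaps had GC contents of 30.1% at mRpS10, 28.6% at mRpL24 and 28.1% at mRpS2. They were alike in base composition. For mRpL20 and mRpS23, also of rank 1 to 500 but with longer gaps, the 50 bases on each side of the summit are shown, likewise on the strand of the member and without a match to any of the motifs.
mRpL20, minus strand, chr3L:13018088-13018188: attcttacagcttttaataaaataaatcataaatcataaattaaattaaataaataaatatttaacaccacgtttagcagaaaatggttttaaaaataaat
mRpS23, minus strand, chr2L:13835414-13835514: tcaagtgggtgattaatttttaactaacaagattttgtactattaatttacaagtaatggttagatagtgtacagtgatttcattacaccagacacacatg

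Over the 13 member summits, the GC content of the 101 bases around the summit had a median of 27.7%, from 15.8% at mRpL20 to 39.6% at mRpL11. The median over all 1429 IDR summits at protein-coding starts was 32.7%. The promoters of all 73 members, with or without a peak, had a median GC content of 34.6%, against 38.2% over all protein-coding promoters. The word of 7 bases found at most member summits was AAATTAA, at 7 of 13, against 14.1% of the 1429. It was picked after all words had been counted, from windows that are richer in A and T, so its count is a description only.

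The other small-subunit peak of this height lay at mRpS23, a protein specific to mitochondrial ribosomes. The peak at chr2L:13835292-13835622 scored 1787 and held rank 49, with rank 53 in replicate 1 (score 734) and rank 47 in replicate 2 (score 1050). Its summit was at −392 bp from mRpS23 and −100 bp from CenG1A, a gene for an Arf GTPase-activating protein that starts 492 bp from mRpS23 on the other strand. Both replicates placed it near the same rank, and it lies much closer to CenG1A.

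mRpS2 encodes a small-subunit protein with a bacterial counterpart. Its peak at chr2L:4850434-4850673 scored 612 at rank 451, with rank 332 in replicate 1 (score 302) and rank 604 in replicate 2 (score 309). The summit lay at −142 bp from mRpS2 and −80 bp from Mon1, which encodes a factor of late endosome maturation.

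Scores at the remaining 5 small-subunit genes were far lower, with no member of either subunit between ranks 489 and 2010. At mRpS6, rank 2010 (score 265), the replicates differed, with rank 958 in replicate 1 and rank 3868 in replicate 2. At mRpS26, rank 2064 (score 261), they were closer, with ranks 2041 and 2496 in replicates 1 and 2. The peak at mRpS7, rank 2285 (score 242), had rank 3464 in replicate 2 and no candidate within 500 bp in replicate 1. Its summit lay at −220 bp from mRpS7 and −180 bp from Cdk1, the gene of the cyclin-dependent kinase that drives entry into mitosis. mRpS22, rank 3382 (score 186), and mRpS18B, rank 3823 (score 171), were near the end of the IDR list. Both ranked higher in replicate 1 (1803 and 2960) than in replicate 2 (5829 and 5296). Of the weaker small-subunit genes, mRpS6, mRpS22 and mRpS18B thus ranked higher in replicate 1, and at mRpS26 both replicates gave a like rank. At mRpS7 only replicate 2 had a listed candidate, with a score of 112. The missing candidate does not show that replicate 1 added nothing to the peak there.

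Among large-subunit genes the highest peak lay at mRpL41, whose product is specific to mitochondrial ribosomes. The peak at chr2R:15217589-15217923 scored 1843 and held rank 47. It ranked 43 in replicate 1 (score 833) and 51 in replicate 2 (score 1014). The summit was at −139 bp from mRpL41. No other protein-coding start lay within 500 bp of it: the divergent gene CG8079 starts 762 bp away, with the summit at −623 bp from it, and the only other start within the window was that of lncRNA:CR44463, a non-coding gene on the same strand as mRpL41 whose start lies 439 bp from the summit.

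mRpL23 encodes a protein that lies at the exit of the ribosomal tunnel in bacterial and mitochondrial ribosomes. Its peak at chr3L:2373456-2373781 scored 1079 at rank 135, with rank 90 in replicate 1 (score 521) and rank 174 in replicate 2 (score 561). It was the only member whose IDR summit lay downstream of its nearest start, by 59 bp and inside the annotated gene. mRpL23 has 3 annotated starts, and the 59 bp is not measured from the outermost one. The start of CG9004 lies 24 bp upstream of that outermost start, on the other strand. The summit was at −109 bp from CG9004.

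mRpL24 and mRpL20, both with bacterial counterparts, completed the high-ranking set. The peak at mRpL24 (chr2L:4945360-4945612) scored 716 at rank 332, with rank 305 in replicate 1 (score 313) and rank 379 in replicate 2 (score 389). It lay midway in its gap, at −111 bp from mRpL24 and −107 bp from betaggt-I, which encodes a subunit of a protein prenyltransferase. The peak at mRpL20 (chr3L:13018014-13018274) scored 589 at rank 489, with rank 563 in replicate 1 (score 233) and rank 469 in replicate 2 (score 355). It was at −271 bp from mRpL20 and nearer to Icmt, the gene of a prenylcysteine methyltransferase, at −128 bp. At mRpL11, rank 3077 (score 198), the replicates gave ranks 2222 and 4730 in replicates 1 and 2, and the summit lay inside HtrA2, a gene of a mitochondrial protease, 96 bp downstream of its start.

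**Figure D1:**
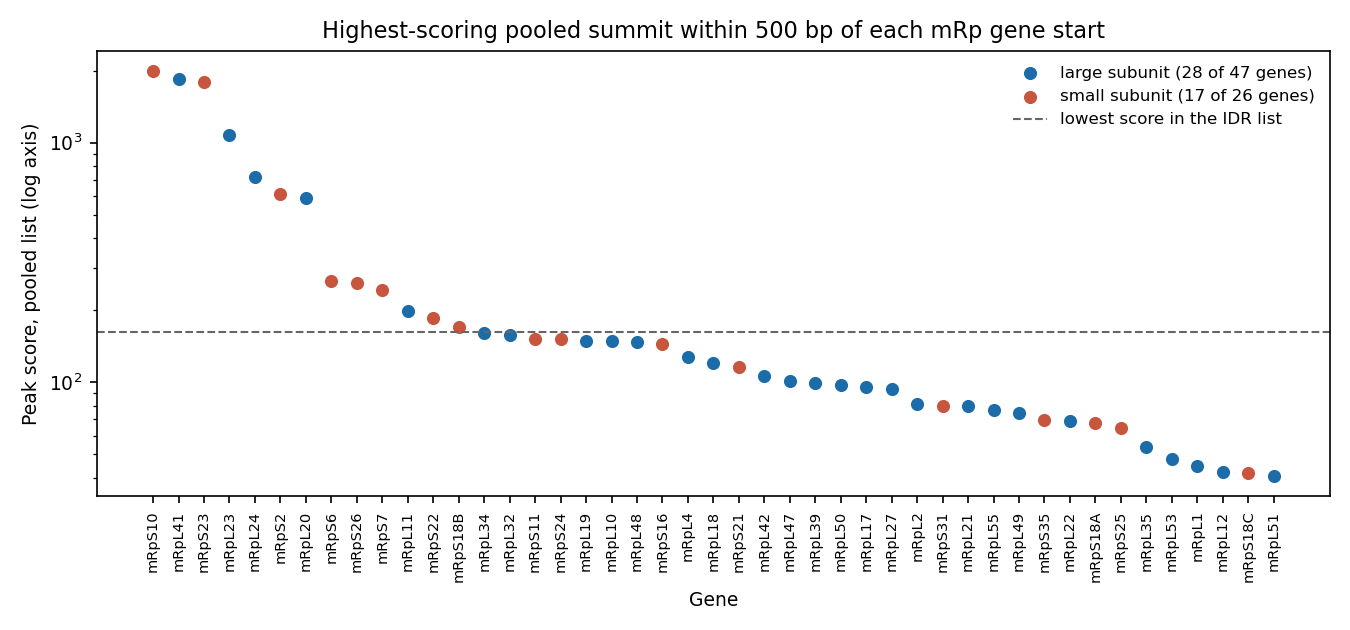
Score of the highest summit within 500 bp of each gene in the list made from both replicates (log axis), for the 45 of 73 genes that had one, coloured by subunit. 7 genes stand at 589 or above, the other 6 IDR genes lie between 171 and 265, and the dashed line marks the lowest IDR score, 163.

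The scores fell in 2 steps, with 7 genes from 589 to 1992 and the other 6 from 171 to 265. The median over the 13 was 589, against 292 over the 1964 protein-coding genes with an IDR summit. Of the 13, 7 (53.8%) had rank 1 to 500, against 15.8% of the 1964. By subunit, the median was 716 over the 5 large-subunit genes and 263 over the 8 small-subunit genes, although the highest and third-highest scores belonged to small-subunit genes.

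The small subunit had the larger share of genes with an IDR summit, 8 of 26 (30.8%, lower Wilson bound 16.5), and the large subunit had 5 of 47 (10.6%, upper bound 22.6). The share over all protein-coding genes was 14.1%, below the lower bound of the small subunit and inside the interval of the large one (4.63 to 22.6). The intervals of the subunits overlap and the difference was not tested. Counting only genes with a divergent promoter, defined below, the small subunit had 8 of 21 (38.1%, interval 20.8 to 59.1). The large subunit had 5 of 37 such genes (13.5%). For both subunits the interval then includes the background share, 23.0% of all divergent protein-coding genes. Among the highest 4089 candidates the small subunit had 8 of 26 genes in replicate 1 and 7 of 26 in replicate 2, and the large subunit had 7 of 47 and 6 of 47. These are 30.8% and 26.9% for the small and 14.9% and 12.8% for the large subunit, against 14.1% of all protein-coding genes in each replicate. Candidates of any rank in the list made from both replicates were about as frequent in both subunits, at 17 of 26 (65.4%) and 28 of 47 (59.6%), against 41.6% of all protein-coding genes. In mammals the homologs of mRpS18A and mRpS30 sit in the large subunit; neither gene had an IDR summit, so moving them leaves 8 of 24 and 5 of 49. A split by number alone, not by known bacterial counterparts, was made after the values were seen. Its limits were the highest bacterial numbers, 36 for the large and 21 for the small subunit. Of the 42 genes up to these numbers, 9 had an IDR summit (21.4%, interval 11.7 to 35.9). Of the 31 genes with higher numbers, 4 had one (12.9%, interval 5.13 to 28.9). Both intervals include the 14.1% of all protein-coding genes.

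By chromosome arm, 5 of the 12 members on 2L had an IDR summit (41.7%, interval 19.3 to 68.0), against 14.7% of all genes there. There were 4 of 17 on 3L (15.3% of all genes), 3 of 21 on 3R (14.8%), 1 of 12 on 2R (12.9%) and 0 of 11 on X (12.1%). On these 4 arms the intervals include the share of all genes, with an upper bound of 25.9% on X. The arms were not compared by a test.

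The replicates were next compared at the same promoters, by rank only, since each list has a score scale of its own. Of the 13 genes with an IDR summit, 12 were among the 4089 highest candidates of replicate 1, 10 among those of replicate 2 and 9 among both. The same shares over the 1964 protein-coding genes with an IDR summit were not computed. Since the IDR list was made from the same replicates, some overlap is built in. Taken over all members, 15 genes were called in replicate 1, 13 in replicate 2 and 10 in both (13.7%), against 14.1%, 14.1% and 10.6% of all protein-coding genes. The 7 high-ranking genes held ranks 36 to 563 in replicate 1 and 47 to 604 in replicate 2.

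**Figure D2:**
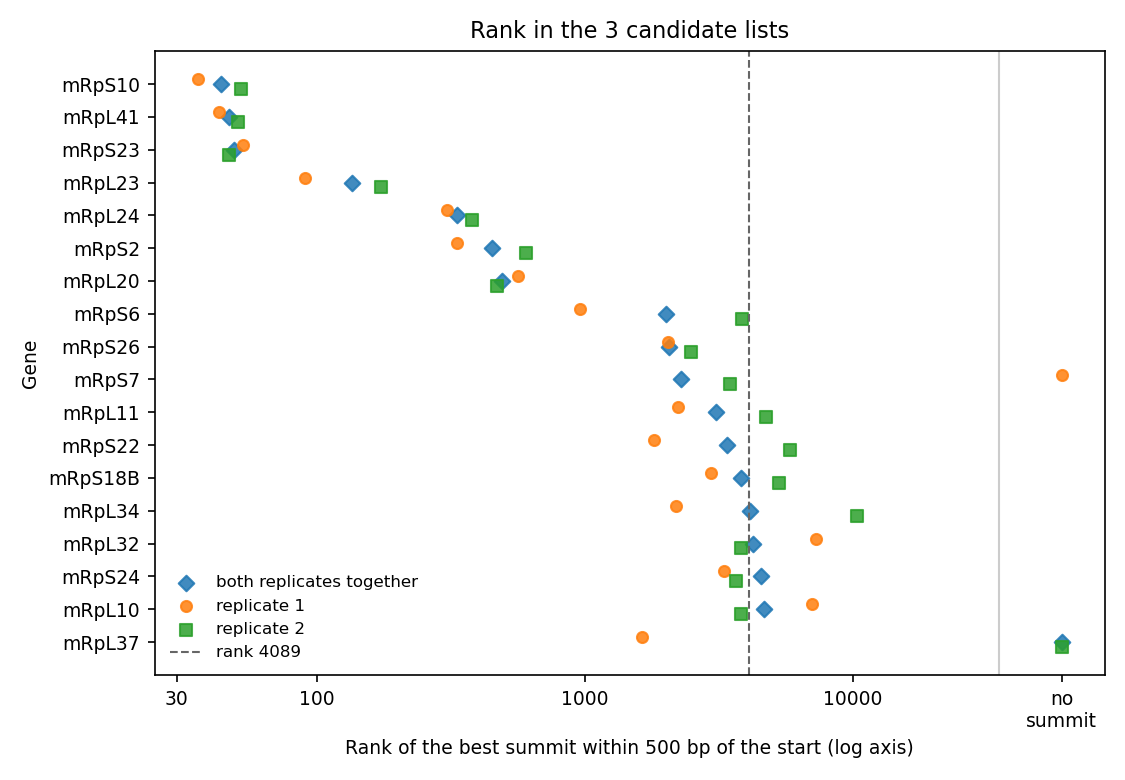
Rank of the best summit within 500 bp (log axis, high ranks to the left) in the list from both replicates and in each replicate, for the 18 genes called in the IDR list or among the 4089 highest candidates of either replicate. The 3 symbols lie close together from mRpS10 to mRpL20 and spread apart below; mRpS7 has no summit in replicate 1, and mRpL37 has one in replicate 1 alone.

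In total 9 of the 73 genes changed their call between the IDR list and a single replicate. Besides mRpS7, mRpL11, mRpS22 and mRpS18B, these were mRpL34, mRpL32, mRpS24, mRpL10 and mRpL37. The share of all protein-coding genes with such a change was not computed, so the count of 9 has no background beside it. mRpL34 was the member just outside the IDR list, at rank 4144 with a score of 161, against 171 at mRpS18B just inside it; it ranked 2195 in replicate 1 and 10333 in replicate 2. mRpS24, at rank 4540 (score 151), was among the highest 4089 of both replicates (ranks 3301 and 3659 in replicates 1 and 2) but not in the IDR list. Its best summits lay at −248 bp in replicate 1 and −104 bp in replicate 2. mRpL32 (rank 4253) and mRpL10 (rank 4639) were called in replicate 2 alone, at ranks 3838 and 3808. mRpL37 ranked 1628 in replicate 1, with a score of 126, and had no candidate in replicate 2 or in the list from both. mRpS11, at rank 4485 (score 152) between mRpL32 and mRpS24, was called in neither replicate, with ranks 4610 and 4367 in replicates 1 and 2.

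Most other members had weaker candidates or none. The list from both replicates held a candidate at 45 members (61.6%, interval 50.2 to 71.9), against 41.6% of all protein-coding genes. This difference shrank among divergent genes, where 40 of 58 members (69.0%) and 54.2% of all such genes had a candidate. The 32 members with a candidate below the IDR list scored from 40.8 to 161, with a median of 94.8. A further 12 had a candidate in 1 replicate only and none in the list from both. These were mRpL37 and mRpS5 in replicate 1, and mRpL16, mRpL28, mRpL33, mRpL43, mRpL52, mRpL54, mRpS17, mRpS28, mRpS29 and mRpS30 in replicate 2. The remaining 16 had no summit in any list: mRpL3, mRpL9, mRpL13, mRpL14, mRpL15, mRpL30, mRpL36, mRpL38, mRpL40, mRpL44, mRpL45, mRpL46, mRpS9, mRpS14, mRpS33 and mRpS34. The shares of all protein-coding genes in these last 2 classes were not computed, so the counts of 12 and 16 have no background beside them. A missing summit says only that no candidate was listed there.

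Many of these promoters are shared with a neighbouring gene. Divergent promoters were those with the start of a second gene, on the other strand, at most 1000 bp upstream. This held for 58 of the 73 members (79.5%, interval 68.8 to 87.1), against 39.6% of all protein-coding genes, and the nearest partner was protein-coding in all 58. All 13 members with an IDR summit were divergent, which makes 13 of 58 (22.4%), against 23.0% of all divergent protein-coding genes. None of the 15 other members had one (interval 0 to 20.4%), against 8.23% of all genes without such a partner, although 5 had a candidate in the list from both replicates. Within each class the share of members was thus close to that of other genes of the same arrangement, or too uncertain to tell from it.

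The length of the gap between the starts gave a like picture. With a partner start at least 200 and under 500 bp upstream, 10 of 31 members (32.3%) had an IDR summit, against 29.9% of all genes so arranged. Under 100 bp it was 1 of 18 (5.56%, interval 0.988 to 25.8), against 19.4%. From 100 to under 200 bp it was 1 of 4, against 16.8%, and from 500 to 1000 bp 1 of 5, against 16.5%. The 1 gene of these 18 with an IDR summit was mRpL23, at 24 bp. Most of the others had a weaker candidate, as did mRpL18, whose partner Taz starts 20 bp away (rank 6127 in the list from both replicates) and mRpL48, with CG17660 at 41 bp (rank 4709). Only mRpL15 with CtIP at 41 bp, mRpL46 with CG2021 at 28 bp and mRpS14 with Naa15-16 at 21 bp had no summit in any list.

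**Figure D3:**
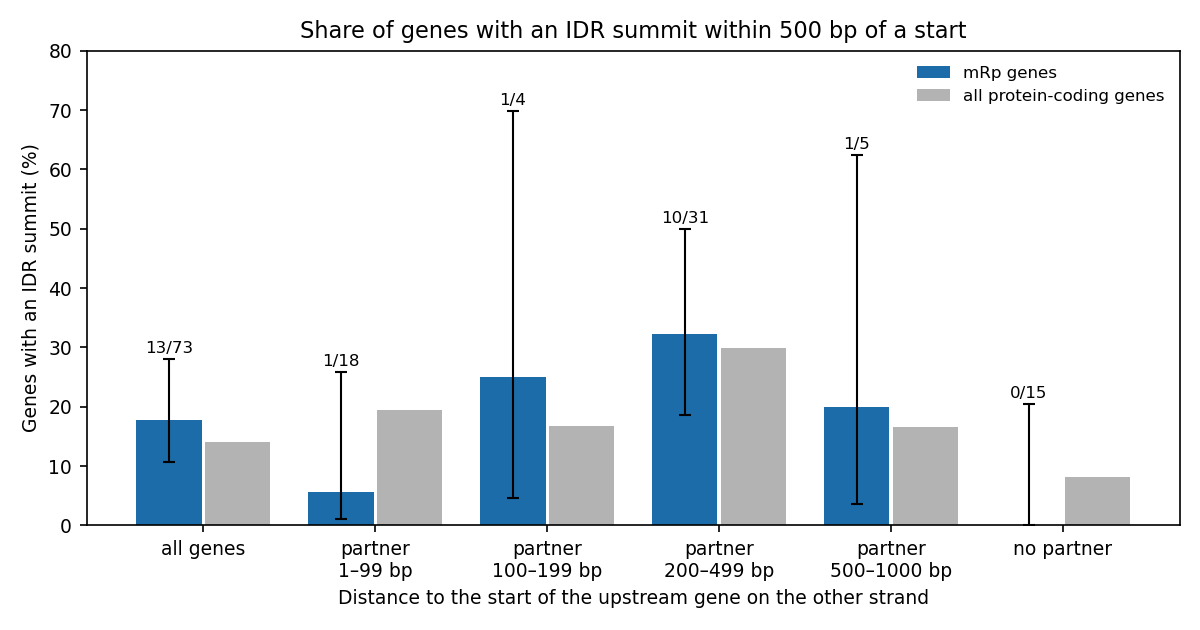
Percent of genes with an IDR summit within 500 bp of a start, for mitochondrial ribosomal protein (mRp) genes (blue, with counts and 95% Wilson intervals) and all protein-coding genes (grey), over all genes and by the distance to a divergent start. The blue bars exceed the grey by little overall (17.8% and 14.1%) and from 200 to under 500 bp (32.3% and 29.9%).

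The summits lay between the starts of the pair at 11 of the 13 genes, the exceptions being mRpL11 and mRpL23. In 9 of 13 cases the start of another gene was nearer to the summit than that of the member. The member was nearest at mRpL23, mRpL41, mRpS6 and mRpS18B. Neither count was computed over all divergent genes with an IDR summit, so both lack a background. Relative to the member, the summits had a median position of −182 bp and ranged from −392 to 59 bp. The median over the 1964 protein-coding genes with an IDR summit was −143 bp. Summits 100 to 300 bp upstream made up 11 of the 13 (84.6%), against 50.2% of the 1964 genes and 53.1% of the 1271 divergent ones. This class was not among the planned results, and the sets were not matched for the gap between starts. A partner start 200 to under 500 bp upstream was present at 10 of the 13 members and at 737 of the 1271 divergent genes. As a fraction of the gap from the member, the summit stood at 0.509 at mRpL24, 0.541 at mRpS10, 0.550 at mRpS7, 0.551 at mRpS22, 0.574 at mRpS26 and 0.470 at mRpS18B. These 6 lie near the middle, whereas mRpS23 (0.797), mRpL20 (0.679) and mRpS2 (0.640) lean towards the partner and mRpL41 (0.182) and mRpS6 (0.406) towards the member.

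**Figure D4:**
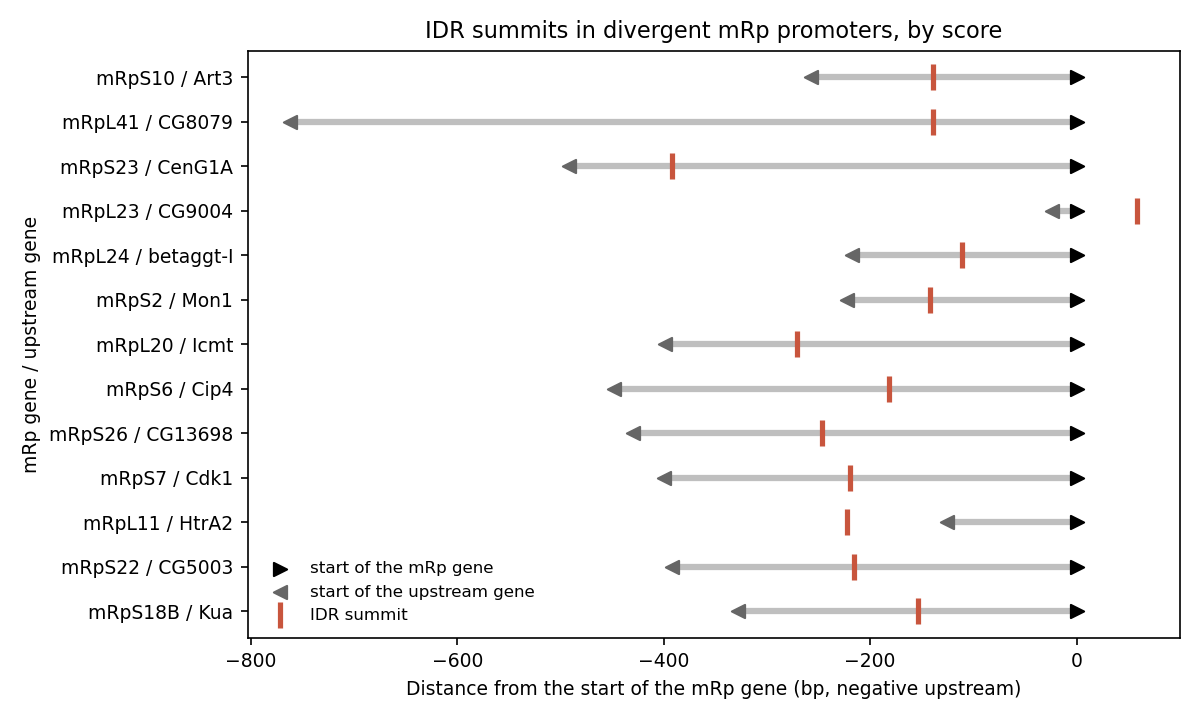
Position of the IDR summit (red bar) relative to the start of the mitochondrial ribosomal protein gene (black, at 0) and that of its divergent partner (grey), in bp, for the 13 genes by falling score. 11 red bars fall between the starts, that of mRpL23 lies 59 bp downstream of the member and that of mRpL11 beyond the start of HtrA2. At mRpL23, which has 3 annotated starts, the summit is drawn from the nearest start and the partner from the outermost.

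The partners have varied known roles. They include enzymes of protein modification (Art3, Icmt, betaggt-I), regulators of membrane traffic and the cytoskeleton (CenG1A, Mon1, Cip4), the mitotic kinase gene Cdk1 and the mitochondrial protease gene HtrA2. The partners at mRpS18B, mRpS22, mRpS26, mRpL23 and mRpL41 were Kua, CG5003, CG13698, CG9004 and CG8079. Among the 5 highest members outside the IDR list, mRpL34 is paired with Dg, the gene of dystroglycan, at 384 bp. mRpL32 is paired with qless at 264 bp, mRpS24 with Apc2 at 421 bp and mRpS11 with Ns1 at 57 bp. The fifth, mRpL19 (rank 4625, score 149), has no divergent partner, nor has mRpL10, which ranks next.

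For sequence features shared by the promoters, windows ran from 250 bp upstream to 50 bp downstream of 1 start per gene (301 bases), searched on both strands for the DRE (TATCGATA), the motif 1 core (GGTCACAC), the E-box CAGCTG, the Zelda site (CAGGTAG), the GAGA element (GAGAGAG), an ETS-type site (CCGGAAG), an NRF-type site (GCGCATGC), the TATA box (TATAAA) and the words TATTTAC and TGTTTGC, which came from earlier results of these data. No motif contains another. The E-box was in 40 of 73 member promoters (54.8%), against 17.9% of all 13945 protein-coding promoters and 21.7% of the 5526 divergent ones. It was in 27 of 47 large-subunit and 13 of 26 small-subunit promoters, and in 9 of 15 without a divergent partner. The share was 26.1% of 88 promoters of oxidative phosphorylation subunits and 9.78% of 92 promoters of cytosolic ribosomal proteins. These shares are descriptions without a test.

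The E-box copies of the members lay close to the start. Their centres had a median position of 5 bp and quartiles of −31 and 19 bp over 45 copies, against a median of −50 bp and quartiles of −136 and −2 bp over 2825 copies in all promoters. Within 50 bp of the start stood 35 of 45 (77.8%), against 50.4% of the 2825. The word was thus a common feature of these genes at the start itself, as at base 211 of the mRpS2 gap printed above, near its end.

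The share with an E-box was alike among members with and without a peak. It was in 7 of the 13 promoters with an IDR summit (53.8%) and in 33 of the 60 without (55.0%). Within 50 bp of the 13 summits there was no E-box, against 4.41% of the 1429 IDR summits at protein-coding starts. Measured from the summit on the strand of the member, the nearest copy lay at −64 bp at mRpL11, −100 bp at mRpS2, −110 bp at mRpL23, −123 bp at mRpL24, 133 bp at mRpL41, 177 bp at mRpS18B, 199 bp at mRpS6, 337 bp at mRpS22 and 351 bp at mRpS26. At mRpL20, mRpS7, mRpS10 and mRpS23 there was none within 500 bp.

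The DRE was in 15 of 73 member promoters (20.5%), against 8.95% of all and 14.5% of divergent promoters. It stood in 3 of 13 with an IDR summit (mRpL20, mRpS18B and mRpS23) and in 12 of 60 without. The motif 1 core was in 8 of 73 (11.0%), against 7.54% of all promoters, and in none of the 13 with a summit. The TATA box was in 34 (46.6%), against 45.3%, and TATTTAC in 9 (12.3%), against 9.78%. TGTTTGC was in 2 (2.74%), against 8.54%, the GAGA element in 1 (mRpL43) against 6.21%, and the NRF-type site in 1 (mRpL21) against 1.06%. The ETS-type and Zelda sites were in none, against 1.09% and 1.72%. At the 13 member summits the only matches within 50 bp were TATA boxes, at mRpL23, mRpS7 and mRpS18B, against 26.3% of the 1429 summits. A TATA box here means a match to the word TATAAA alone, on either strand and at any position in the window. The absence of a word in these windows says nothing further about any factor.

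Other nuclear genes of mitochondrial gene expression were examined in the same way. tko and bonsai, which encode mitochondrial ribosomal proteins under other names, had no candidate in the list from both replicates. Of 9 mitochondrial translation factor genes none had an IDR summit (interval 0 to 29.9%), against 14.1% of all protein-coding genes. A candidate lay at 5 of the 9, the highest at mIF2 with a score of 115, against 41.6% of all protein-coding genes. Of 15 mitochondrial aminoacyl-tRNA synthetase genes 1 had an IDR summit (6.67%, interval 1.19 to 29.8), ArgRS-m (score 199, rank 3050). The intervals of both lists include the share of all protein-coding genes.

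Genes of mitochondrial DNA and RNA maintenance had 4 of 15 (26.7%, interval 10.9 to 52.0), against 14.1% of all genes. They were PNPase, which encodes a mitochondrial polynucleotide phosphorylase (score 1870, rank 45), SLIRP2 (score 1136, rank 107) and SLIRP1 (score 376, rank 1121), which encode RNA-binding proteins, and mtSSB, the single-stranded DNA-binding protein gene (score 368, rank 1170). The replicate ranks of PNPase were 46 and 45 in replicates 1 and 2. Of 15 import genes 1 had an IDR summit, Tom7 (score 368, rank 1165), as did 11 of 88 oxidative phosphorylation subunit genes (12.5%), none of them at rank 1 to 500. The mitochondrial ribosomal protein genes had 13 of 73 (17.8%, interval 10.7 to 28.1), against 66 of 92 cytosolic ribosomal protein genes (71.7%, interval 61.8 to 79.9), and the intervals do not overlap. At rank 1 to 500 the counts were 7 of 73 (9.59%) and 14 of 92, and 0 of 88 for the oxidative phosphorylation subunits. The share of all protein-coding genes at these ranks was 2.23%, and no difference was tested.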

How the data were processed

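Peak lists of 2 ChIP-seq replicates on dm6 were used as deposited. Per the authors' deposited file descriptions, candidate lists of 30000 intervals were derived from each replicate, or both, against 1 control file, and the IDR list from these; the sources used here do not state the aligner, the peak caller or the threshold. The deposited score of the authors' peak caller, on a scale of its own in each list, ranked the peaks; the 4089 IDR peaks are exactly the highest of the list from both replicates, so membership does not show a peak in each replicate. The deposited −log10 q value was not used, since 3363 peaks share its highest value. Depth is unknown.

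Summits (column 2 plus column 10 of the deposited lists) were set against Ensembl release 115 starts, without transposable elements, and RefSeq sequence of the same assembly, with Python 3.11.15, pandas 2.3.3 and scipy 1.17.1. Positions are 1-based. Lookup was tested on simulated data. Wilson intervals cover counting error only. Alternatives were TSS windows of 250 and 1000 bp, 1 TSS per gene, the 2044 highest IDR peaks, interval overlap, single replicates (their 4089 highest candidates) and other partner rules; in addition, after the data were seen, both replicates together and another subunit assignment. Named genes are members with an IDR summit, the 5 highest below it, those whose call differs in a replicate, their partners, and tko and bonsai; genes of related lists and examples of short gaps were named after their values were seen. Rank and gap classes, protein-number classes, E-box positions, words of 7 bases and the printed sequences were also chosen after values were seen. Members and lists were chosen with earlier results of these data known. Neighbouring genes that share a peak are not independent. 1 further sequence is not reported here.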

Additional observations from a re-analysis of the deposited data

How the results depend on the processing

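The count of genes with an IDR summit was 13 and stayed between 11 and 14 with TSS windows of 250 or 1000 bp and with 1 TSS per gene; the 250 bp window lost mRpL20 and mRpS23 and the 1000 bp window added mRpL2. Among the 2044 highest IDR peaks there were 8 members, 8 of them divergent and 4 for the small subunit; mRpL11, mRpS7, mRpS18B, mRpS22 and mRpS26 were lost because fewer peaks were used. When the peak interval had to cover a start, 6 were left, 6 of them divergent, 3 for the large and 3 for the small subunit, so the call at the other 7 rests on the window. With 1 replicate left out the count ran from 13 to 15, for divergent members from 12 to 15, for other members from 0 to 1 (mRpL10), for the large subunit from 6 to 7, for the small subunit from 7 to 8, for members with a candidate from 32 to 50 and for rank 1 to 500 it was 6 in each. With both replicates required the count of called genes was 10, of which 9 were IDR members. For rank 1 to 500 the count fell from 7 to 5 with the 250 bp window. It stayed at 7 with the 1000 bp window and with 1 TSS per gene. A partner limit of 500 bp made mRpL41 the 1 non-divergent member with a summit, while coding partners alone changed no count. The median position was −154 bp with the 250 bp window and −169 to −141 bp with 1 replicate left out, and kept its sign in every setting run. Unknown depth limits what a missing candidate can show. No paired analysis was possible because there is 1 group.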
